A study of Mus musculus with 6 samples.

Results

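The Zfp genes analysed here are the 279 mouse genes of the deposited tables whose symbol is Zfp followed by digits only, out of 11736 genes in all. Zfp36, whose protein binds mRNA, has such a symbol and was left out. RNA was read from gonadal somatic cells of male (XY) C57BL/6 embryos at embryonic day E11.5. The genotype label was Cdyl-Het (heterozygous) for 3 libraries and Cdyl-KO (knockout) for the other 3. All 6 carried Nr5a1-hCD271, which puts the surface marker hCD271 on Nr5a1-expressing cells, and marker-positive cells were collected with magnetic beads. No wild-type library was among the samples, so the comparison is between knockout and heterozygous cells. The labels do not say whether samples were single embryos or pools, so p-values measure only the spread between these libraries, which may be technical. In bulk RNA of this kind, fewer cells of a type and less RNA per cell cannot be told apart.

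Zfp symbols name a large and mixed family of proteins with zinc-binding fingers, mostly of the C2H2 type, in which paired cysteines and histidines hold a zinc ion and the finger contacts DNA or RNA. Many members also carry a KRAB box, which recruits the corepressor TRIM28 and, through it, the histone H3K9 methyltransferase SETDB1, and they silence retroelements and protect imprinted regions. These KRAB genes lie in tandem clusters and many are young paralogs. Members without a KRAB box include transcriptional activators, corepressors, ubiquitin ligases and ribosome factors. Cdyl encodes a chromodomain protein of repressive chromatin that works with H3K9 and H3K27 methyltransferases, and the comparison asked how its loss changed expression in these cells.

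Of 364 protein-coding genes with such a symbol in the GENCODE M21 annotation (build GRCm38, the mm10 of the submitters' processing notes), 276 were listed in the tables, and the other 88 are not analysed here. Of the 279 listed members, 278 matched 1 annotated gene each, most often on chromosome 7 (66 genes), chromosome 17 (37), chromosome 8 (22) and chromosome 13 (21). The translated transcripts of 276 members were searched for the C2H2 pattern and for the conserved core of the KRAB box. The KRAB core was found in 136 and not in 140. The search misses some boxes, such as that of Zfp57, a known KRAB protein. The misses were not counted, so the 140 are a mixed class that holds KRAB genes too. Fingers numbered 0 to 5 in 51 members, 6 to 10 in 83 and more than 10 in 142. Zfp703 and Zfp503, which are higher in Cdyl-KO and described below, had 0 matches to the C2H2 pattern; proteins of their family carry an atypical finger.

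Promoter windows of 250 bases before and 50 after the annotated start were found in RefSeq (GRCm38.p6) for 230 members. Shown here are those of 3 members that rose, Zfp503, Zfp428 and Zfp277, and of the KRAB gene Zfp951, which was lower. Of these, Zfp277 and Zfp951 did not pass when any 1 library was left out. Zfp703, the member with the largest log2 change, had no window among those found. Zfp951 had 2 annotated starts, and the window of 1 of them is shown. Capitals mark any match to the motifs searched, on either strand, which were GGGCGG (GC box), CCAAT, GCGCATGC (the core of the NRF1 motif), TTCAGCACC (a piece of the REST motif), CAAGGTCA (the site of Nr5a1), CACGTG (E-box) and TATAAA. The windows are chr14:21989552-21989851 (minus strand) for Zfp503, chr7:24506837-24507136 (plus) for Zfp428, chr12:40445741-40446040 (minus) for Zfp277 and chr5:104859978-104860277 (minus) for Zfp951, each written 5′ to 3′ on its own strand.
Zfp503: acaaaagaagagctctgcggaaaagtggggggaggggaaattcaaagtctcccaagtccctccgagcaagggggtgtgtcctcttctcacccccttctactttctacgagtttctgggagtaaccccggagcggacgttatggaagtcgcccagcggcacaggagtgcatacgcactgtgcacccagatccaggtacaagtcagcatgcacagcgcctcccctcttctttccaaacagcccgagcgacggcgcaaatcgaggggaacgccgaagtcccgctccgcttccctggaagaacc
Zfp428: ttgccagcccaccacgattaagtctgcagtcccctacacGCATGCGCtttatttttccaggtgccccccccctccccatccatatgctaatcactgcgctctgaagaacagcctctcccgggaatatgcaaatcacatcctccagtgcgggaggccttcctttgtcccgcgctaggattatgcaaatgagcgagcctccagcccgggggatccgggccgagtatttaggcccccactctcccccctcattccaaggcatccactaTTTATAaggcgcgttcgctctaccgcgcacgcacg
Zfp277: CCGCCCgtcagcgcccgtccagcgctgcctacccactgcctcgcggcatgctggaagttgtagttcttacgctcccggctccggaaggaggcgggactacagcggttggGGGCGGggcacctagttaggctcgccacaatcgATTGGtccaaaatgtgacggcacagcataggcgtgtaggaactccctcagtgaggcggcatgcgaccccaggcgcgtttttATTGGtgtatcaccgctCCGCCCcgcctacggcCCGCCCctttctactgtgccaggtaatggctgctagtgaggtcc
Zfp951: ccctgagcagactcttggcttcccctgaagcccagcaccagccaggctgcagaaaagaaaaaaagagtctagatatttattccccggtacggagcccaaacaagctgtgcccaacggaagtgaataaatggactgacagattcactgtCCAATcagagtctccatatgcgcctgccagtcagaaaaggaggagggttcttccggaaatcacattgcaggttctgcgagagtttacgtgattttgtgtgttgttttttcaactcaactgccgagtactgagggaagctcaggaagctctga

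These windows held 19 CpG dinucleotides in Zfp503, 19 in Zfp428, 26 in Zfp277 and 8 in Zfp951. The median was 11 over the 118 KRAB members with a window, 19.5 over the 110 members without the KRAB core and 22 over the 8593 listed genes with a window. The GC box was present in 47.8% of member windows, in 67.7% of the windows of listed genes and in 35.7% of all 32851 windows of the table. CCAAT was present in 47.4% of member windows, 39.0% of those of listed genes and 37.4% of all windows. The NRF1 core was in 5.22%, 6.06% and 2.71% of the same 3 sets, CACGTG in 8.70%, 10.6% and 7.15%, TATAAA in 5.65%, 6.30% and 13.6%, and the Nr5a1 letters in 1.30%, 1.09% and 1.56%. With the core lengthened by GC at its 3′ end, the fuller NRF1 motif was in 3.91%, 2.30% and 0.971%, so whether members were above or below listed genes turned with the letters searched. The REST letters were in 0 of the 230 member windows and in 0.372% of the windows of listed genes and 0.371% of all windows. Zfp503 held none of the 7 motifs, Zfp428 held the NRF1 core and TATAAA, Zfp277 held 4 GC boxes and 2 CCAAT boxes, and Zfp951 held 1 CCAAT box. These are matches of letters and say nothing of binding.

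Levels are given as RPKM (reads normalised for gene length and for library depth) after division by a library factor, here called scaled RPKM. The depth implied by the steps between low values was 34.6 to 45.2 M reads per library, and the member with the fewest implied reads had 64.7 in its lowest library (median over members 619). The steps may be off by a factor, so these depths are approximate. Libraries correlated at 0.976 to 0.983 within groups and 0.962 to 0.977 between groups (Pearson, across genes, which are not independent replicates). Cdyl itself read 7.78, 8.04 and 8.27 in the heterozygotes against 6.77, 6.95 and 7.01 in the knockouts. These ranges were apart, though limma gave an adjusted p of 0.0635 (log2 change -0.19). The labels do not state which piece of Cdyl was altered, so its level does not check the genotype. All 5 chosen markers of gonadal somatic cells were listed (2 higher), with a summed level of 295 to 337 scaled RPKM in Cdyl-Het and 322 to 356 in Cdyl-KO. They did not move together. In the group means, Nr5a1 (85.95 to 77.56) and Gata4 (79.19 to 75.01) were lower and Wt1 (70.61 to 75.74) was higher, none of them called. The 2 called higher were Lhx9 and Emx2. Of the 6 endothelial markers, 5 were listed and summed to 24.7 to 26.5 in Cdyl-Het and 14.8 to 17.8 in Cdyl-KO, with 3 lower. The 3 listed of 4 mesonephric markers summed to 6.87 to 9.62 and 8.49 to 10.1, with 1 higher. The 2 listed of 7 neuronal markers summed to 1.28 to 3.17 and 4.32 to 6.41, also with 1 higher. The 2 of 7 germ cell markers summed to 3.33 to 5.18 and 3.11 to 3.78, and the 2 of 5 blood markers to 14.95 to 62.1 and 15.4 to 45.1. No germ cell or blood marker was called. The part of these other cells in the changes of Zfp genes was not tested.

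Of the 279 listed members, 7 were higher and 1 was lower in Cdyl-KO (limma on log2(scaled RPKM + 1), adjusted p under 0.05 over all 11736 genes), and 271 did not pass. That is 2.87% of the members, where 7.92% of all genes passed, 4.82% higher and 3.09% lower. At an unadjusted p under 0.05 there were 37 members, or 13.3%, against 25.6% of all genes. The 3 libraries of each group did not overlap in 61 members (21.9%; 39 higher and 22 lower), against 31.8% of all genes. The median log2 change was 0.01 over the members and 0.00 over all genes, and 88.5% of members changed by less than 0.2 on the log2 scale, against 72.3% of all genes. For 262 members (93.9%) the 95% interval of the change (not adjusted for the number of genes) lay within 0.5 of 0 on the log2 scale, and for all 279 within 1. These bounds are on log2(scaled RPKM + 1), which understates changes of low genes, and 34 members had a mean under 2. They are therefore not bounds on the ratio of levels. The median coefficient of variation within a group was 7.70% in Cdyl-Het and 7.24% in Cdyl-KO over the members, beside 7.37% and 7.16% over all genes. All members had deposited group means of at least 1 in both groups, so none was listed through 1 group alone.

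**Figure D1:**
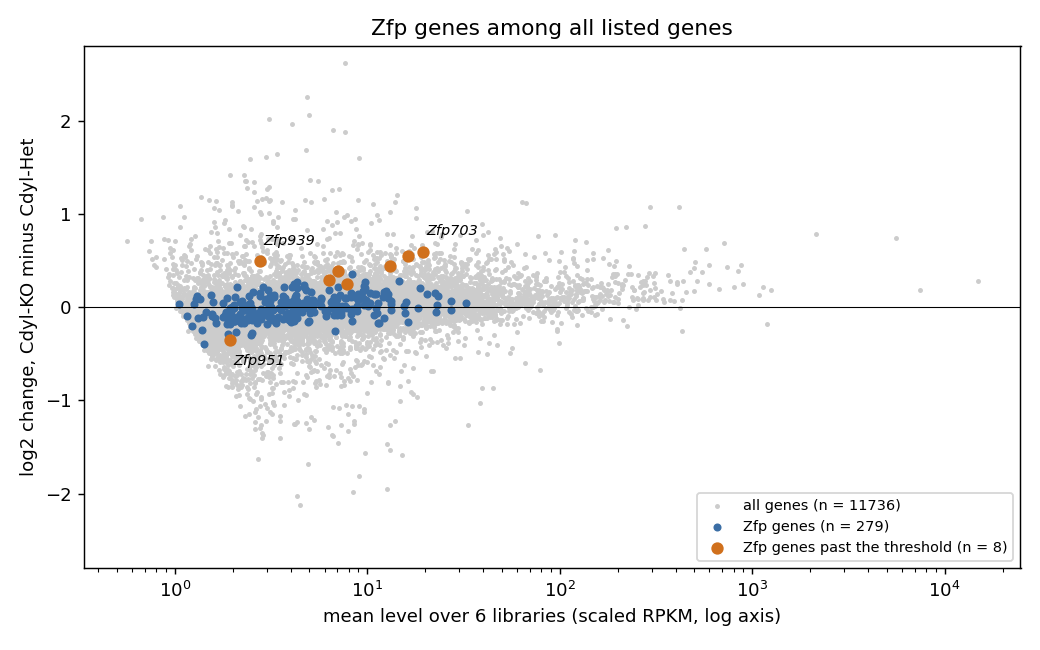
Log2 change of each gene (Cdyl-KO minus Cdyl-Het, vertical axis) against its mean level over 6 libraries in scaled RPKM (log axis), for all 11736 genes in grey, the 279 Zfp genes in blue and the 8 past the threshold in orange. The Zfp genes lie between -0.39 (Zfp429) and 0.59 (Zfp703).

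The split between directions depended on the scaling. Without a scaling factor the median log2 change of all genes was -0.12, and 4 members were higher and 14 lower; among all called genes the share that was higher was then 16.4%, against 60.9% with scaling. Changes are given relative to that shift. Summed over the 279 members, scaled RPKM was 1605, 1613 and 1562 for Cdyl-Het, against 1642, 1653 and 1647 for Cdyl-KO, whereas the deposited values summed to 1676, 1694 and 1650 and to 1568, 1598 and 1541, so the order of the groups in this sum turned with the scaling and gives no direction for the family.

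Among the 3 members that passed in every fit tried, Zfp703 and Zfp503 rose the most. They encode the NET family corepressors, which act with Groucho-type factors; ZNF703 is amplified in human breast cancer, and Zfp503 acts in the mouse striatum and limb. Zfp703 (chromosome 8, 26977325 to 26981461) was at 16.4, 14.9 and 14.6 scaled RPKM with Cdyl-Het and 23.3, 22.1 and 25.5 with Cdyl-KO. The groups were apart, and the means of 15.3 ± 0.966 and 23.6 ± 1.74 (SD, n = 3 per group) stood in a ratio of 1.54 (log2 change 0.59, SE 0.07, limma adjusted p = 0.00777). Zfp503 (chromosome 14, 21983959 to 21989601) was at 14.3, 12.8 and 11.97 in Cdyl-Het and at 19.9, 18.5 and 20.1 in Cdyl-KO. Again the groups did not overlap, and the mean rose from 13.0 ± 1.17 to 19.5 ± 0.878, a ratio of 1.5 (log2 change 0.55, SE 0.07, limma adjusted p = 0.00923). In level they ranked 9 and 13 among the 279 members. Their adjusted p-values were 0.00722 to 0.0393 for Zfp703 and 0.00827 to 0.0443 for Zfp503 over 14 alternative fits. Of the 31-base words of their transcripts, 0% of Zfp703 and 0.382% of Zfp503 occur in transcripts of another gene, and exons of Zfp703 overlap the opposite-strand gene Gm45371. The called members given here and below were picked by a small p. Groups that did not overlap, as in 31.8% of all genes, therefore add no support for them.

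Zfp428, a member with 1 C2H2 match, also passed in all 14 alternative fits. It lies on chromosome 7 (24507006 to 24515682) and was at 11.4, 10.2 and 11.3 scaled RPKM in Cdyl-Het and at 15.1, 14.6 and 16.2 in Cdyl-KO. The groups did not overlap, and the mean rose from 10.98 ± 0.691 to 15.3 ± 0.845 (ratio 1.39, log2 change 0.45, SE 0.07, limma adjusted p = 0.0121; 0.0114 to 0.0448 over the alternatives). Its exons overlap the opposite-strand gene AC161166.1, and whether counting used the strand is not stated.

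The other 5 calls lay closer to the threshold, and each was lost without some library. Zfp939 (chromosome 7, 39449518 to 39477413), which the annotation lists as a transcribed unprocessed pseudogene, was at 1.85, 2.21 and 2.36 scaled RPKM for Cdyl-Het, against 3.68, 3.25 and 3.29 for Cdyl-KO (ratio 1.59, log2 change 0.49, SE 0.09, limma adjusted p = 0.0222). Its level was low, and 19.96% of its 31-base words also occur in another gene, with Gm28455 sharing the most, so its reads may be shared. It passed without Cdyl-Het replicate 1 and in no other fit that left out a library (0.0465 to 0.0735).

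Zfp277, which in mouse fibroblasts works with a Polycomb complex to repress the Ink4a/Arf locus, lies on chromosome 12 (40315046 to 40445902). It was at 6.46, 5.97 and 5.51 scaled RPKM in Cdyl-Het and at 9.22, 7.70 and 7.58 in Cdyl-KO, with Cdyl-KO replicate 1 highest (ratio 1.37, log2 change 0.39, SE 0.09, limma adjusted p = 0.0420). Zfp513, a regulator of photoreceptor genes (chromosome 5, 31198981 to 31202303), was at 5.50, 5.58 and 5.77 and at 6.63, 7.18 and 7.49 (ratio 1.26, log2 change 0.29, SE 0.06, limma adjusted p = 0.0317), and its exons overlap the opposite-strand gene Snx17. Zfp574 (chromosome 7, 25072567 to 25083492), with 18 finger matches, was at 7.44, 7.06 and 6.69 and at 8.30, 8.86 and 8.54 (ratio 1.21, log2 change 0.25, SE 0.06, limma adjusted p = 0.0451). In all 3 genes the groups did not overlap, yet none passed when any 1 of the 6 libraries was left out: the adjusted p was 0.0542 to 0.130 for Zfp277, 0.0514 to 0.0933 for Zfp513 and 0.0554 to 0.128 for Zfp574. None of the 3 passed without scaling (0.0770, 0.0857 and 0.167).

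Zfp951, a KRAB gene with 10 finger matches (chromosome 5, 104813169 to 104860070), was the member called lower. It was at 2.16, 2.43 and 2.28 scaled RPKM in Cdyl-Het and at 1.49, 1.56 and 1.67 in Cdyl-KO, without overlap (ratio 0.687, log2 change -0.35, SE 0.08, limma adjusted p = 0.0491). Genes of its level leaned the same way, with a median of -0.09 in the lowest of 4 level bins. After cyclic loess, which removes such shifts, its change was -0.27 with an adjusted p of 0.118, and without any 1 library the adjusted p was 0.0916 to 0.142.

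**Figure D2:**
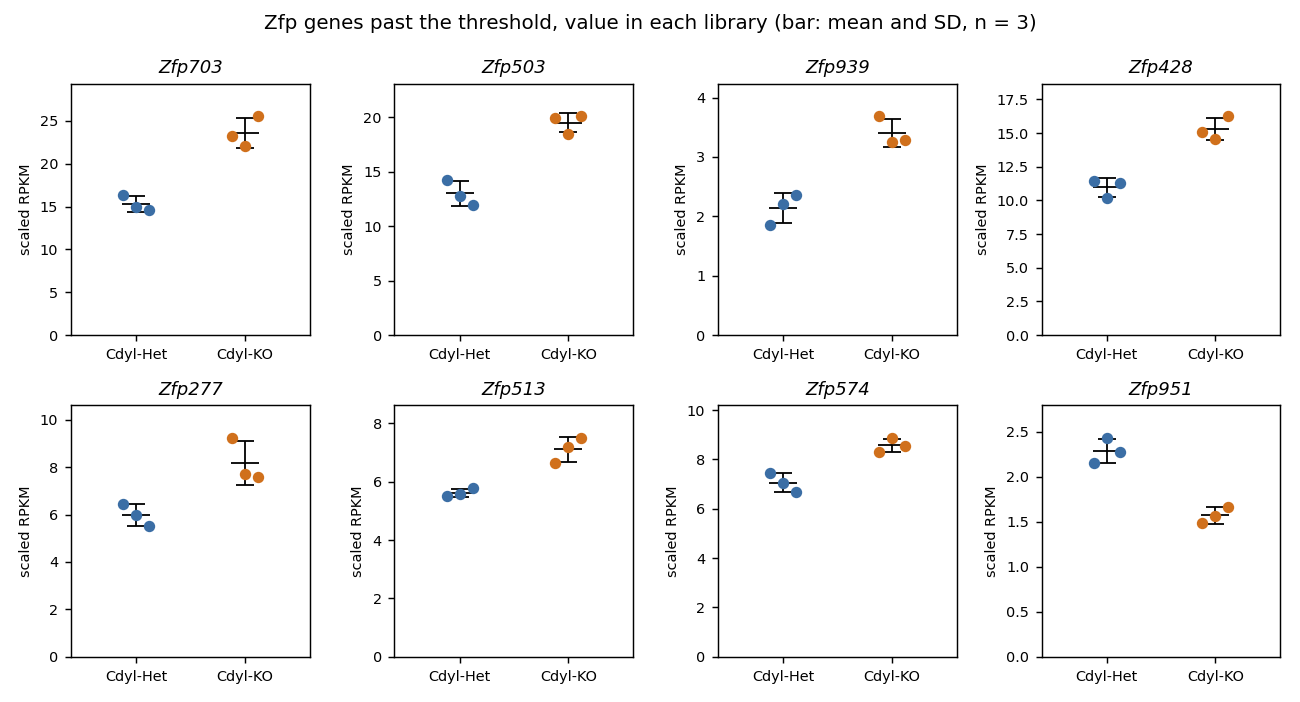
Scaled RPKM in each Cdyl-Het (blue) and Cdyl-KO (orange) library for the 8 Zfp genes past the threshold, each panel with its own axis from 0; bars give the mean and SD (n = 3 per group). In all 8 the groups of points do not overlap, as in 31.8% of all genes. The 8 were picked by a small p, so this separation adds no support for them. Zfp951 alone is lower in Cdyl-KO.

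Among members that missed the threshold, 10 had a limma adjusted p below 0.1. The matching share of all genes is not given here, so the count is no result about the family. Cdyl-Het and Cdyl-KO values were apart in each of these 10, and in 31.8% of all genes. The 10 were picked by a small p, so this separation adds no support for them. The closest ones, named here after their values were seen, were Zfp768 (8.75 to 10.7 scaled RPKM in the group means, log2 change 0.27, limma adjusted p = 0.0587) and Zfp467 (7.20 to 9.45, 0.35, 0.0610). Zfp467 passed without Cdyl-Het replicate 1, its highest Cdyl-Het library at 8.28 against 6.74 and 6.57 in the other two. Zfp429, a KRAB gene of low level, had the lowest change of the family (-0.39), but its SE was 0.19 and its groups overlapped (adjusted p = 0.243).

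KRAB members, here those in which the KRAB core was found, had a lower median level than the rest, and 1 of the 8 calls was among them. The rest also hold KRAB genes that the search missed, and the difference in calls between the classes was not tested. Of the 136 with the KRAB core, 0 rose, 1 fell (Zfp951) and 135 did not pass, or 0.735% called. Of the 140 without it, 6 rose, 0 fell and 134 did not pass, or 4.29% called. At an unadjusted p under 0.05 there were 11 (8.09%) and 25 (17.9%) in these classes. Over all genes 7.92% were called and 25.6% had an unadjusted p under 0.05. The median level was 3.11 scaled RPKM with the KRAB core and 6.52 without, against 5.98 for all genes, and the median log2 changes were 0.00 and 0.02. Calls grew more frequent with level among all genes, from 5.28% in the lowest of 4 equal bins of level (up to 2.95 scaled RPKM) through 7.02% and 8.04% to 11.3% in the highest (from 12.2). In the same bins, 2 of 85, 0 of 101, 3 of 67 and 3 of 26 members were called. The 0 of 101 in the second bin was a limma count at the adjusted threshold. At an unadjusted p under 0.05 there were 10 of these members (9.9%), against 23.1% of all genes of the bin. Only 3 KRAB members were in the highest bin, against 23 without the KRAB core, so the shares of the classes rest on different levels. The median log2 changes by bin, from lowest to highest level, were -0.07, 0.02, 0.04 and 0.07 for members and -0.09, -0.03, 0.01 and 0.06 for all genes. Within the lowest bin, the 61 KRAB members had a median of -0.07 and the 22 others one of -0.09. The 9 members with a SCAN box, a dimerisation domain, had 0 calls by limma (1 at an unadjusted p under 0.05) and a median of 0.03. In a class of 9, 0 calls cannot be set apart from the 7.92% called over all genes.

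**Figure D3:**
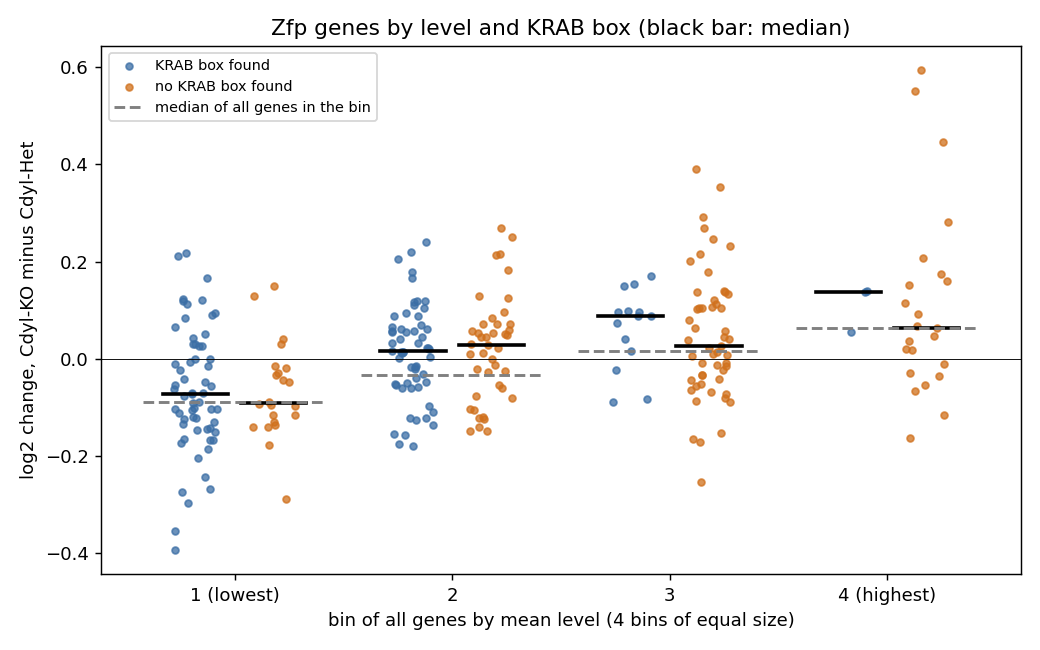
Log2 change (Cdyl-KO minus Cdyl-Het) of Zfp genes in 4 equal bins of all genes by mean level, with the KRAB core found (blue) or not (orange); black bars are medians of the points and dashed lines medians of all genes of the bin. The medians move from -0.07 and -0.09 in the lowest bin to 0.14 and 0.06 in the highest, while the dashed line moves from -0.09 to 0.06. The 0.14 is the median of only 3 members with the KRAB core.

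Members that guard imprints and silence retroelements did not pass the threshold. Zfp57, which keeps methylation on imprinted regions, was at 17.2 ± 1.02 scaled RPKM in Cdyl-Het and 15.3 ± 1.52 in Cdyl-KO (SD, n = 3 per group; log2 change -0.16, limma adjusted p = 0.255). It passed as lower without scaling (-0.30, adjusted p = 0.0378). Zfp445, another imprint factor, was at 15.6 ± 1.44 and 16.2 ± 0.501 (0.05, 0.677). Zfp568, which represses a placental transcript of Igf2, was at 11.2 ± 0.339 and 11.6 ± 0.995. Zfp809, which silences murine leukaemia virus sequences, was at 5.42 ± 0.234 and 5.20 ± 0.447, and Zfp932, which binds endogenous retroviruses, at 4.797 ± 0.515 and 4.92 ± 0.401. Of the 31-base words of Zfp932, 48.3% also occur in another gene, with Gm15446 sharing the most, so its value may hold reads of that paralog.

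KRAB boxes act through shared partners. Of 32 listed genes of the silencing machinery, 2 rose, 0 fell and 30 did not pass, with a median log2 change of 0.02. The 6.25% called is near the 7.92% of all genes, so the count is no result about this list. Those that rose were Chd4, the helicase of the NuRD complex (90.2 to 107.9 scaled RPKM in the group means, log2 change 0.26, limma adjusted p = 0.0461), and Ehmt2, the H3K9 methyltransferase G9a (25.2 to 30.3, 0.26, 0.0284). Trim28, the corepressor that KRAB boxes bind, read 97.2, 105.1 and 97.7 with Cdyl-Het and 107.8, 106.4 and 105.3 with Cdyl-KO (0.09, adjusted p = 0.330), and Setdb1 had means of 14.2 ± 0.978 and 14.1 ± 1.28 (SD, n = 3 per group; -0.01, 0.946). Zfp644, a partner of the G9a complex, was at 12.9 ± 0.501 and 13.6 ± 0.399.

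The next members named have roles in stem cells, mesenchyme and neurons, and none of them passed. Zfp521 and Zfp423, large proteins with 27 finger matches each, bind EBF factors. Zfp521 was at 17.9, 18.2 and 15.99 scaled RPKM for Cdyl-Het, against 20.1, 19.7 and 20.7 for Cdyl-KO, without overlap, but did not pass (log2 change 0.21, 95% interval 0.06 to 0.35, limma adjusted p = 0.0871). Zfp423 was at 10.1 ± 0.653 and 10.2 ± 0.656 (SD, n = 3 per group; 0.01, 0.959). The difference between these members was not tested. Zfp143, an activator bound at many promoters, was at 8.04, 7.21 and 7.13 in Cdyl-Het and at 5.53, 6.06 and 6.72 in Cdyl-KO, without overlap (-0.25, 95% interval -0.44 to -0.07, adjusted p = 0.0992), and passed as lower without scaling (0.0225). Zfp281, a factor of the pluripotency network, was at 7.92 ± 0.418 and 7.87 ± 0.892. Among factors of neural development, Zfp462 was at 22.8 ± 1.96 and 23.1 ± 0.142, Zfp292 at 22.5 ± 2.07 and 24.4 ± 0.704 and Zfp335 at 8.76 ± 0.636 and 8.85 ± 0.480.

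Zfp532, Zfp592 and Zfp687, whose human counterparts bind the chromatin reader ZMYND8, did not pass. Zfp532 was at 12.2 ± 0.598 scaled RPKM in Cdyl-Het and 10.7 ± 0.651 in Cdyl-KO (SD, n = 3 per group; log2 change -0.17, limma adjusted p = 0.143). Zfp592 was at 8.38 ± 0.428 and 8.28 ± 0.234 (-0.02, 0.890), and Zfp687 at 8.498 ± 0.0299 and 9.33 ± 0.526 (0.12, 0.224). The groups did not overlap for Zfp532 and Zfp687, and Zfp532 passed as lower without scaling (0.0229).

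Zfp362 averaged 31.9 ± 1.02 and 33.1 ± 2.41 in scaled RPKM (SD, 3 libraries each), Zfp207, which supports the mitotic spindle, averaged 27.7 ± 1.20 and 26.98 ± 1.14, and Zfp146 averaged 26.5 ± 1.99 and 27.9 ± 2.27, followed by Zfp292 and Zfp462. None of these 5, the highest of all members, passed; the 95% interval of the log2 change was -0.10 to 0.20 for Zfp362 and -0.17 to 0.09 for Zfp207. The members named for protein and RNA handling did not pass either. Zfp598, a ubiquitin ligase of collided ribosomes, was at 12.3 ± 0.772 and 10.9 ± 0.895 (log2 change -0.17, limma adjusted p = 0.212), Zfp91, another ubiquitin ligase, at 12.5 ± 0.789 and 13.3 ± 0.165, Zfp622, a factor of large ribosomal subunit assembly, at 4.42 ± 0.129 and 4.51 ± 0.0361, and Zfp106, an RNA-binding protein, at 23.3 ± 0.639 and 22.4 ± 0.192.

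Of 46 symbols chosen for a described role, 39 were listed. Zfp703 and Zfp503 passed and the other 37 did not, where 7.92% of all genes passed. The list was chosen with earlier results of these data known, so this count is no result about genes with a described role. The 37 lay between -0.25 (Zfp143) and 0.21 (Zfp521) on the log2 scale. Among the general factors of this list, Zfp384 averaged 10.3 ± 0.652 and 11.4 ± 0.101 in scaled RPKM (SD, 3 libraries each) and Zfp827 averaged 11.6 ± 0.167 and 11.02 ± 0.0165, both without overlap between groups, and Zfp609 was at 15.4 ± 0.628 and 15.6 ± 0.255. Zfp410, which activates Chd4, was at 4.15 ± 0.292 and 3.97 ± 0.287.

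**Figure D4:**
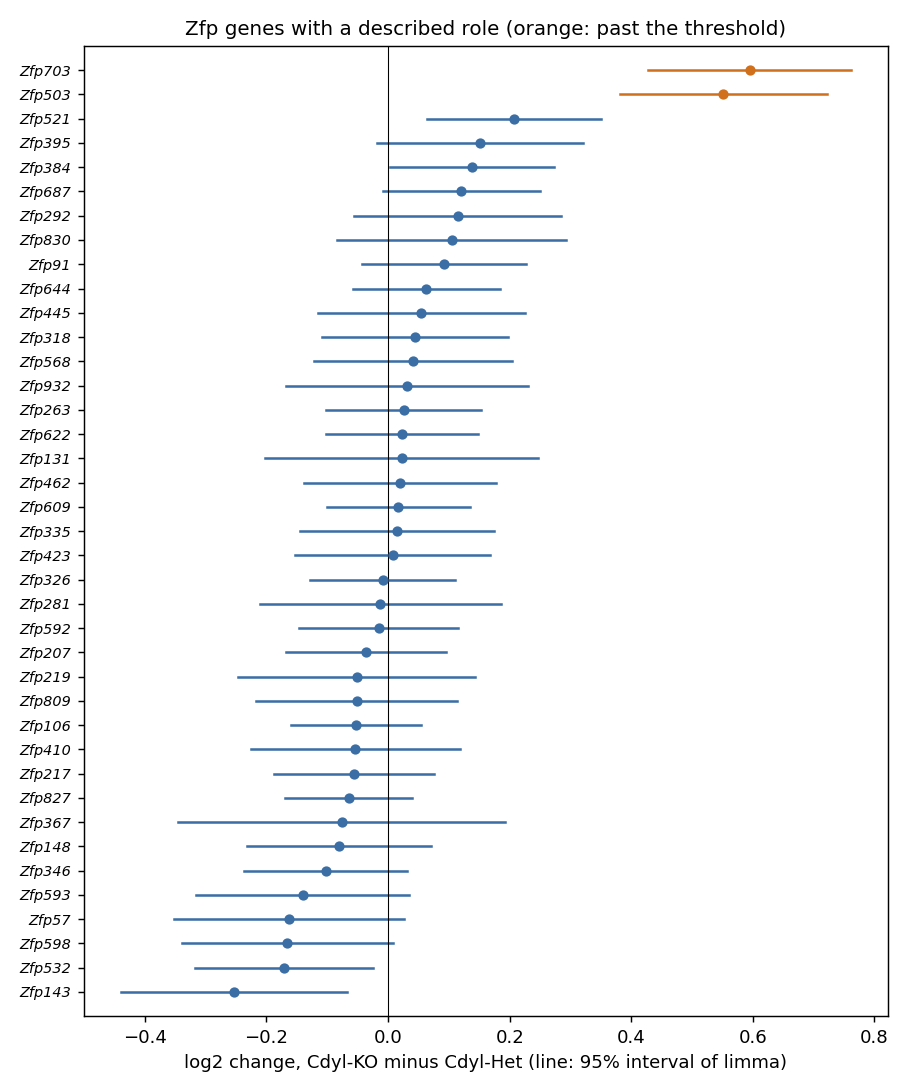
Log2 change (Cdyl-KO minus Cdyl-Het) with the 95% interval of limma for the 39 Zfp genes chosen for a described role, ordered by change. Zfp703 at 0.59 and Zfp503 at 0.55 (orange) stand above the others, which lie between -0.25 and 0.21.

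Many members lie in chromosomal clusters. With a gap of at most 1 Mb between neighbours and at least 4 listed members, 145 members fell into 20 clusters, of which 2 rose, 0 fell and 143 did not pass (1.38% called, against 7.92% of all genes). Both calls, Zfp428 and Zfp574, were in a cluster of 11 on chromosome 7 (24081924 to 25227507), which had a median log2 change of 0.09, with 7 members above 0 and 4 below. This cluster was singled out by its calls, so its share called (18.2%, against 7.92% of all genes) is no result about it. Zfp574 did not pass when any 1 library was left out, whereas Zfp428 passed in every fit tried. The largest cluster, on chromosome 17 (21008903 to 23599487), held 19 members, 17 of them with the KRAB core. The median of that largest cluster was -0.06, with 8 above 0 and 11 below. By limma 0 were called, against 7.92% of all genes, and 0 had an unadjusted p under 0.05, against 25.6%. On chromosome 13, which also carries Cdyl, a cluster of 10 (67038596 to 67827002) had a median of -0.01, 5 members above 0 and 5 below. Cluster medians ran from -0.09 to 0.10. Members that share over 20% of their 31-base words with another gene numbered 32, with 0 calls by limma, against 7.92% of all genes. At an unadjusted p under 0.05 there were 2 (6.25%), against 25.6% of all genes. Values of these members are uncertain, since reads could be split between copies.

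**Figure D5:**
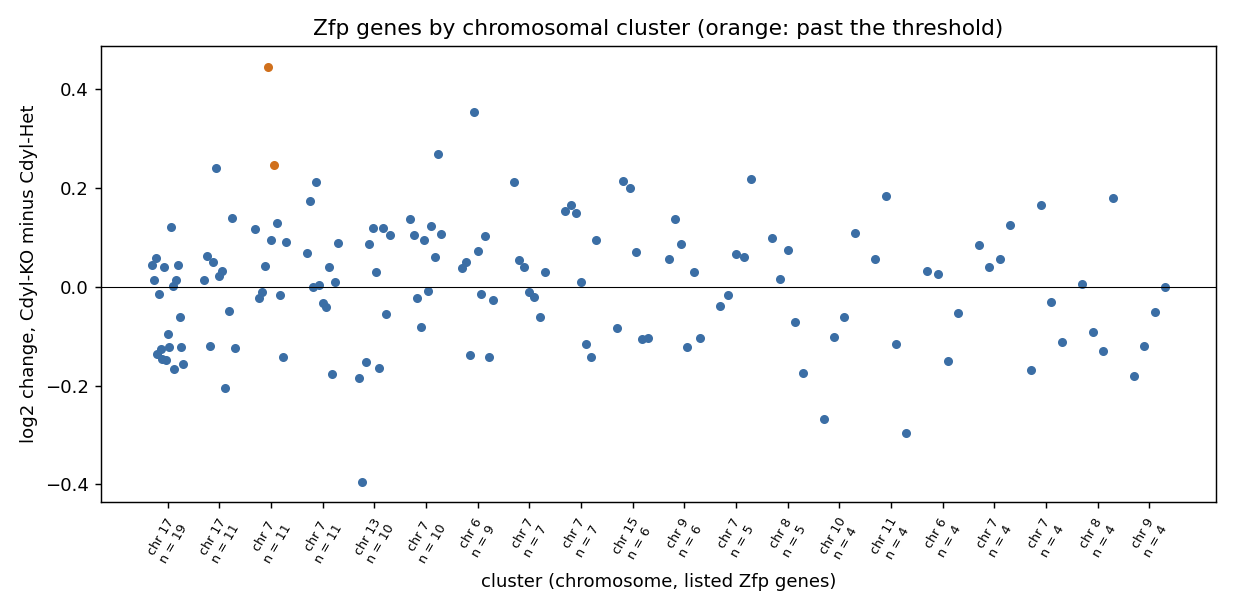
Log2 change (Cdyl-KO minus Cdyl-Het) of the 145 Zfp genes in 20 chromosomal clusters, 1 column per cluster labelled by chromosome and number of listed members, with genes in order of position. Points lie on both sides of 0 in 18 clusters, above it in 1 and below it in 1, and the calls, Zfp428 and Zfp574 (orange), are in 1 cluster of chromosome 7.

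Zinc finger genes with other names were counted in the same way. Of 10 Zscan and 11 Zkscan genes, 0 were called by limma (0 and 2 at an unadjusted p under 0.05), with medians of 0.05 and 0.04. Over all genes 7.92% were called and 25.6% had an unadjusted p under 0.05. In lists this small, 0 calls cannot be set apart from that share. Of 36 Zbtb genes, 1 rose (2.78% called, against 7.92% of all genes), and the median was 0.01. The gene that rose was Zbtb7c (24.5 to 33.2 scaled RPKM in the group means, log2 change 0.42, limma adjusted p = 0.0223). Of 18 genes named Zfp with digits and letters, 0 were called by limma, against 7.92% of all genes, and the median was -0.01. At an unadjusted p under 0.05 there were 3 (16.7%), against 25.6% of all genes. This list is also too small for a result about it. Of 18 genes with a Klf or Sp symbol, 3 rose and 1 fell (22.2% called, against 7.92% of all genes), with a median of 0.07. At an unadjusted p under 0.05 there were 8, or 44.4%, against 25.6% of all genes. The symbol rule also took in Sp140, which is not a Klf or Sp factor. Sp140 is among the 18 and the 8 but was not called (log2 change -0.88, limma unadjusted p = 0.0387), and shares without it were not counted. Among 15 other listed zinc finger genes, 2 rose (13.3% called, against 7.92% of all genes). They were Rest, the repressor of neuronal genes (26.7 to 30.9, 0.20, limma adjusted p = 0.0470), and Zim1, an imprinted gene (26.5 to 35.6, 0.42, 0.0334). Zfpm2, a cofactor of GATA4 in the gonad, was at 17.3 ± 1.499 and 17.4 ± 0.802 (SD, n = 3 per group).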

How the data were processed

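Per the labels' protocols, total RNA of bead-isolated hCD271-positive cells was made into libraries with a SMARTer Stranded Total RNA-Seq Pico kit (v2). The tools in the submitters' processing notes are STAR and featureCounts 1.6.4 (Subread), with build mm10; no source states annotation, strand setting or gene filter. The deposited values have no header and were taken as RPKM made by the authors, since they are not whole and sum to 191953 to 209917 per library. In every gene the larger deposited group mean is at least 1.005.

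Values were divided by an unweighted trimmed mean of ratios per library (30% of ratios and 5% of levels trimmed at each end), and log2(scaled RPKM + 1) was fitted on all 11736 genes with limma 3.58.1 in R 4.3.3 (group only, empirical Bayes with trend, Benjamini-Hochberg, threshold 0.05). The pseudocount understates changes of low genes. Read depth was implied from value times length of short single-exon genes, with 84.7% to 86.9% of values below 200 reads whole within 0.02.

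Finger, KRAB and SCAN patterns were searched in open reading frames of GENCODE M21 coding transcripts, in place of the RefSeq proteins planned; 31-base words were compared on the transcript strand. Members, lists and tests were chosen with earlier results of these data known. Named were members past the threshold, the 5 highest in level and the 39 listed of a list with described roles (not all are described), beside those said to be chosen after their values were seen. Alternatives changed scaling, pseudocount, low-value filter, trend and replicate block, or left out each library. The NRF1 core was added to the search after the shares of its fuller form were seen.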

Additional observations from a re-analysis of the deposited data

How the results depend on the processing

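Zfp703, Zfp503 and Zfp428 passed as higher under all 14 alternatives; the other 5 calls did not. The number of higher members, 7, was 4 without scaling (Zfp703, Zfp503, Zfp428 and Zfp939) and 4 with the replicate block (Zfp513, Zfp574 and Zfp939 lost, limma adjusted p = 0.0757, 0.117 and 0.0866), and 3 to 5 when a library was left out. It was 5 without a trend of the spread and 7 with median ratio scaling, cyclic loess, a pseudocount of 0.1 or 5, or a minimum mean of 2. Members called lower, 1 in the reported fit, numbered 14 without scaling, 0 with median ratio scaling, 0 with cyclic loess, 0 with a pseudocount of 0.1, 0 with a minimum mean of 2 (which removes Zfp951), 0 with the replicate block (Zfp951, adjusted p = 0.138), and 0 to 0 without each library. The members' median log2 change, 0.0105, was -0.1059 without scaling, 0.0338 with cyclic loess and 0.0017 to 0.0144 without each library. The count of all genes called, 929, was 1863 without scaling, 348 with the replicate block and 260 to 691 without each library (heterozygote 2 out, 281; heterozygote 3 out, 260; knockout 1 out, 313; knockout 2 out, 408; knockout 3 out, 458). The cause of these differences was not tested, but a fit without a library has fewer samples. Replicate numbers are shared by the titles, yet same-numbered libraries did not deviate together (correlations of -0.05, -0.27 and -0.05 across genes), so the numbers do not show a pairing; the crossed order was not tried. Without scaling, Zfp57, Zfp143, Zfp532, Zfp827, Zfp598, Zfp346 and Zfp106 passed as lower, at log2 changes of -0.38 (Zfp143) to -0.19 (Zfp827 and Zfp106). No called gene among the 47 named changed sign. Depth is approximate, and members at 1 to 2 scaled RPKM are the least precise.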
